A study of Mus musculus with 6 samples.

Results

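The genes of autophagy and of the lysosome were followed in mouse cortical cells treated with 10HDA. The set holds 37 genes, chosen by name from the known machinery when earlier results of these data were known. All 37 were found among the 43346 genes of the count table by their Ensembl identifiers. They comprise 22 genes of autophagosome formation and cargo capture, 13 genes of lysosomal membrane proteins, enzymes and cofactors, and the genes of 2 transcription factors, Tfeb and Tfe3. Of the 37, 36 reached 10 CPM (counts relative to the total of each library) in 3 or more libraries and so belong to the 10520 genes tested, and Tfeb stayed below that level.

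In autophagy, part of the cytoplasm is enclosed in a membrane, the autophagosome, which then fuses with a lysosome, where acid hydrolases digest its contents. Cargo receptors such as Sqstm1 tie the material to be removed to proteins of the ATG8 family on the growing membrane. TFEB and TFE3 switch on many lysosomal and autophagy genes through E-box sites when they enter the nucleus, and the mTORC1 kinase, active when amino acids are plentiful, holds them in the cytoplasm. Neurons depend on autophagy to clear protein aggregates and worn organelles from cells that no longer divide.

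RNA was sequenced from primary cell cultures of the fetal cortex at gestational day 15.5, grown on poly D-lysine coated coverslips and treated with 10HDA, a fatty acid found in royal jelly, at 1 mM, or with its vehicle, DMSO (spelled DSMO in the labels). There were 6 libraries, and each of cultures 1, 3 and 4 gave 1 vehicle and 1 10HDA library. The labels give strain Cyp19-EGFP and genotype SRY+ for all 6, whereas the methods of the paper name C57BL/6 embryos. Libraries held 9144736 to 13367194 counts, so 3 counts amounted to 0.224 to 0.328 CPM of these totals. That limit is before the scaling of the CPM printed below and covers counting error only. Against the SRY+ label, Y-linked genes summed to 9.07 and 9.30 CPM in the vehicle and 10HDA libraries of culture 1. In the other 4 libraries they summed to 97.8 to 136 CPM, so results are given with and without culture 1 where it bears on them. Xist, the RNA of X inactivation in female cells, was present in all 6 libraries. With vehicle and 10HDA it had 1032 and 1444 CPM in culture 1, 430 and 403 in culture 3, and 843 and 646 in culture 4. The SRY+ label is thus in question for every culture, and their makeup by sex was not tested.

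Markers of neurons and of glia were both present, and many were lower with 10HDA. Of 9 neuron markers, 8 were lower with 10HDA, and their sum ran from 7475 to 8015 CPM with vehicle and from 6271 to 7197 with 10HDA. Of 8 astrocyte markers tested, 7 were lower, with sums of 1194 to 1486 and 912 to 1147 CPM. Of the 8, 3 passed the test used below, all lower, against 0.627% of all genes. Of 7 oligodendrocyte lineage markers tested, 4 were lower and 3 higher (Olig1, Olig2 and Mog), with sums of 343 to 431 and 263 to 373 CPM. Vascular and fibroblast markers summed to 29.0 to 29.4 and 14.3 to 17.2 CPM, mostly from Pdgfrb and Dcn, and of these only Pdgfrb was tested. Of 4 dividing cell markers tested, 3 were higher and 1 lower, with sums of 198 to 240 and 193 to 252 CPM. Cspg4, of the oligodendrocyte lineage, and Pdgfrb passed the same test, both lower, while 0 of the neuron and 0 of the dividing cell markers did. With culture fitted as a block (below), 3 neuron, 4 astrocyte and 3 oligodendrocyte lineage markers and Pdgfrb passed, all lower, against 8.98% of all genes. Microglia, which are rich in lysosomal enzymes, were scarcely represented, as their 10 markers summed to 1.19 to 1.56 CPM with vehicle and 1.03 to 1.35 with 10HDA, and Tmem119 was at 0 in every library. In such bulk RNA, fewer cells of a type and less RNA per cell cannot be told apart, and the part of cell makeup in the values below was not tested.

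The E-box letters that TFEB and TFE3 are known to bind were looked for in the promoters. The 6 bases CACGTG, which read the same on both strands, were sought in RefSeq promoter windows (GRCm38.p6, 250 bases before to 50 after the start). A gene counted if any of its windows held them. They occurred in 9 of the 31 genes with a window, or 29.0%, against 8.09% of 27025 genes with one. They were present in 5 of 11 lysosome genes (Lamp1, Mcoln1, Ctsa, Ctsd and Ctsl) and in 4 of 18 autophagosome genes (Atg3, Atg5, Atg7 and Atg14). The longer form TCACGTG, which contains the shorter, was present in 7 of the 31 genes, or 22.6%, against 4.29% of all. In lists of related genes described below, CACGTG was in 26.8% of 56 other lysosome genes, 22.2% of 18 V-ATPase genes and 20% of 35 other autophagy genes. For TCACGTG these shares were 25%, 22.2% and 17.1%. The letters TGACNNNGC, a form of the antioxidant response element searched on both strands, were in 7 of the 31, or 22.6%, against 14.0% of all. The stretches below, shown because their genes carry more than 1 copy before the start, run 5′ to 3′ along the gene's strand, with CACGTG in capitals.
Lamp1, chr8:13159080-13159160, plus strand: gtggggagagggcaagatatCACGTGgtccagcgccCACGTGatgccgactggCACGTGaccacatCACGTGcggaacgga
Mcoln1, chr8:3500428-3500499, plus strand: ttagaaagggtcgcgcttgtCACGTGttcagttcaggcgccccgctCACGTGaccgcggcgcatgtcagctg
Ctsd, chr7:142387900-142388077, minus strand: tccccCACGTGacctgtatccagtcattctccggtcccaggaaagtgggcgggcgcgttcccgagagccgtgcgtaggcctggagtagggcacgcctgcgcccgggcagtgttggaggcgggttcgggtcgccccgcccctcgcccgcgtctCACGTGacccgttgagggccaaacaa
Atg3, chr16:45158715-45158783, plus strand: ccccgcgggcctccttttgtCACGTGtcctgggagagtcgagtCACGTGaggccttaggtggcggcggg
Lamp1, a heavily glycosylated protein of the lysosomal membrane, had 4 copies within 61 bases of its start. The 250 bases before the start of Lamp2, the gene that differed most between treatments among those tested, held 0 copies, and the windows of Tfeb held none. This stretch is shown as the promoter of the member that moved most among those tested at 10 CPM.
Lamp2, chrX:38456461-38456710, minus strand: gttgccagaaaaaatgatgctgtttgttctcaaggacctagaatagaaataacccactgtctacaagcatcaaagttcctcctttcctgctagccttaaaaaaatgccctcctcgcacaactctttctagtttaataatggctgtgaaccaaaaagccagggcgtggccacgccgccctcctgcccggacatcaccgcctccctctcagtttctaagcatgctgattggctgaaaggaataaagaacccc
A match in these letters describes the window and not a bound site.

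With 10HDA, no gene of the 36 passed the threshold, an adjusted p of 0.1. Adjusted p-values are from the quasi-likelihood test of edgeR, by the Benjamini-Hochberg method over all genes tested, unless another tool is named. DESeq2 and limma-voom also called 0 of them, and 1, Lamp2, had an unadjusted p under 0.05 in edgeR. Among all 10520 genes, 66 passed, 0.627% (21 higher, 0.2%, and 45 lower, 0.428%), and 10.1% had an unadjusted p under 0.05. Of the 36 genes, 19 were higher and 17 lower, with log2 fold changes from -0.20 for Ulk1 to 0.32 for Lamp2. Among all genes tested, 47.9% were higher. Every one of the 36 intervals of 95% lay within a 1.5-fold change in either direction, as did those of 84.0% of all genes. The plot of fold changes shows that only the interval of Lamp2 left out 0.

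**Figure D1:**
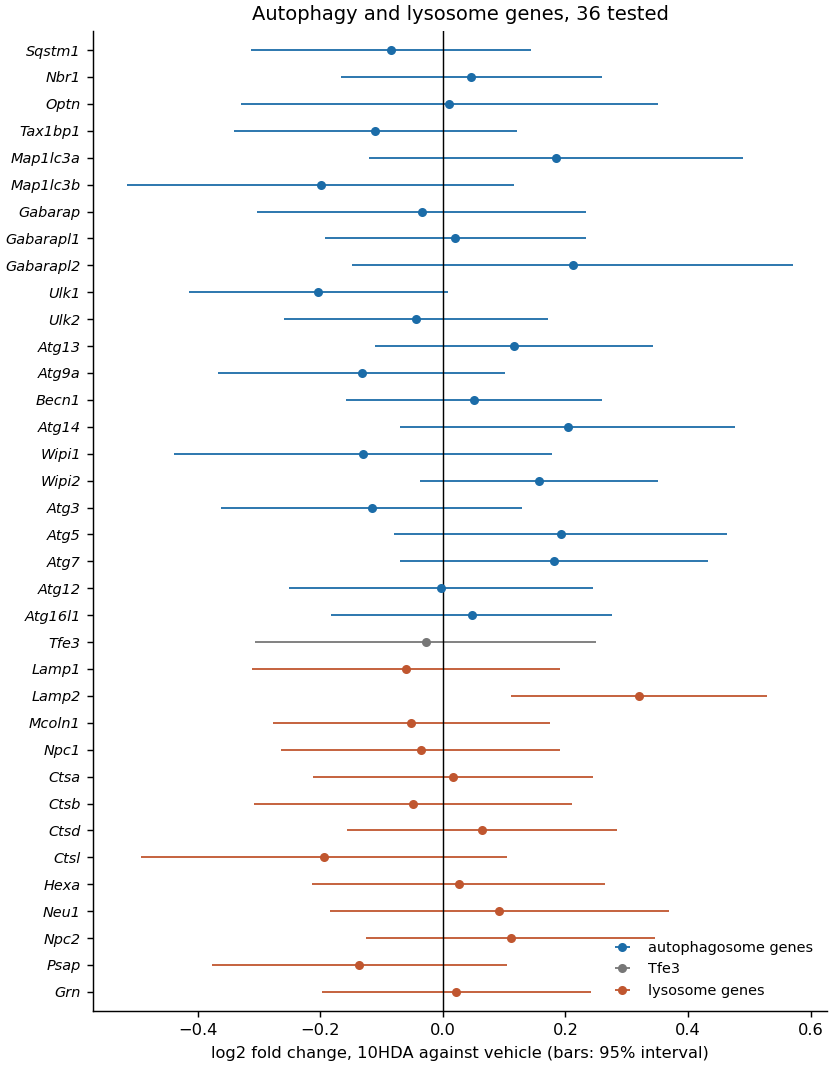
Log2 fold change, 10HDA against vehicle, with its 95% interval, for each of the 36 tested genes, coloured by autophagosome genes, Tfe3 and lysosome genes. Points lie between -0.20 and 0.32, and Lamp2 is the only gene whose interval does not cover 0.

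The labels give each culture a library of each treatment, so culture can be fitted as a block. With the block, 945 of all genes passed (8.98%), 411 of them higher (3.91%) and 534 lower (5.08%), and 1 of the 36 genes passed, Lamp2. Besides Lamp2, Ulk1 had an unadjusted p under 0.05 in that fit (0.044, against 0.058 without the block). That made 2 of the 36, against 2105 of all 10520 genes in the same fit. Vehicle and 10HDA libraries did not overlap in 5 genes, or 13.9% of the 36, close to the 13.4% of all genes. These were Atg14, Wipi2, Atg5 and Lamp2, higher with 10HDA, and Ulk1, lower. In 11 of the 36 genes, 8 higher and 3 lower, the 3 cultures moved the same way, a smaller share than the 39.5% of all genes.

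Lamp2 encodes a membrane protein that lines the lysosome and takes part in its fusion with autophagosomes and in chaperone-mediated autophagy (ENSMUSG00000016534.11, chrX:38401357-38456454 of GRCm38, minus strand). It had 60.1, 63.8 and 57.9 CPM in the vehicle libraries of cultures 1, 3 and 4 and 76.2, 75.6 and 75.1 CPM in the 10HDA libraries. Every 10HDA library was above every vehicle library, and the 10HDA libraries lay close together. The means were 60.6 ± 3.01 and 75.7 ± 0.562 CPM (SD, n = 3 each). The log2 fold change was 0.32 (95% interval 0.11 to 0.53, SE 0.095), with an edgeR adjusted p = 0.28. With the culture block the adjusted p was 0.056, so this gene passed in the paired comparison only. In the block fit without culture 1, 3 or 4 the adjusted p was 0.13, 0.024 and 0.44. The log2 fold change stayed between 0.30 and 0.38 without any 1 library or culture, and it was 0.33 without culture 1. Gene counts add up the splice forms of Lamp2, which differ in their membrane tail, so they do not say which form is involved.

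The other lysosomal membrane proteins showed smaller differences. Lamp1 had 351, 275 and 332 CPM with vehicle in cultures 1, 3 and 4 and 297, 290 and 332 CPM with 10HDA. The groups overlapped, with the vehicle library of culture 1 the highest of the 6 and that of culture 3 the lowest. Its log2 fold change was -0.06 (SE 0.11, adjusted p = 0.87), and it turned to 0.04 without the vehicle library of culture 1. Mcoln1, a calcium channel of the lysosome, and Npc1, which exports cholesterol from it, had log2 fold changes of -0.05 and -0.04.

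Among the lysosomal proteases, Ctsd encodes the aspartic protease cathepsin D, and Ctsb and Ctsl encode cysteine proteases. Ctsd had 179, 145 and 162 CPM with vehicle and 170, 169 and 168 CPM with 10HDA, and its log2 fold change was 0.06 (SE 0.10, adjusted p = 0.84). Ctsb had 332, 251 and 286 CPM with vehicle and 264, 271 and 305 CPM with 10HDA, and its log2 fold change was -0.05 (SE 0.12, adjusted p = 0.90). In both, the vehicle libraries of cultures 1 and 3 were the highest and the lowest of the 6, so that the 10HDA libraries lay inside the range of the vehicle libraries. Ctsb turned to 0.08 without the vehicle library of culture 1, and 12.8% of its exon bases overlap Fdft1 on the opposite strand, whose reads may have been counted with it. Ctsl had a log2 fold change of -0.19 (adjusted p = 0.64) and Ctsa, the protective protein of neuraminidase, one of 0.02. Of the glycosidases, Hexa, which with its partner subunit breaks down the ganglioside GM2, had a log2 fold change of 0.03 and Neu1, a sialidase, one of 0.09. Among the soluble cofactors, Npc2, which hands cholesterol to Npc1, had 0.11, Grn, the progranulin gene, had 0.02, and Psap, the precursor of the saposins that help degrade sphingolipids, had -0.14.

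Per gene length, Psap was the most abundant of the 37 genes, with 340 RPKM (CPM per kilobase of exon) with vehicle and 309 with 10HDA. Lamp1 followed at 142 and Gabarapl1, Gabarap and Map1lc3a at 119, 113 and 108 RPKM with vehicle. Lamp2 stood 31st of the 37, at 6.34 RPKM with vehicle and 7.92 with 10HDA, and Tfeb was the lowest at 0.209 and 0.385 RPKM. The lengths are those of all exons of a gene in the count table, so genes with long alternative exons read low on this scale.

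**Figure D2:**
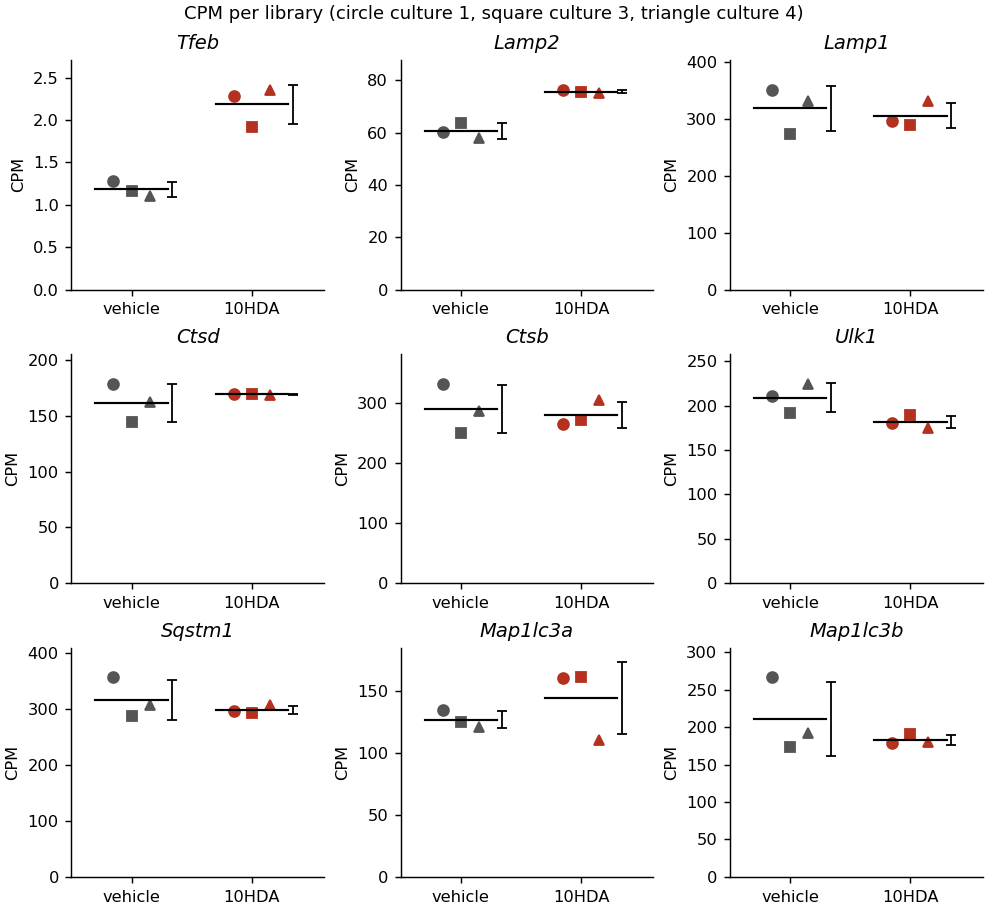
CPM in each library for 9 genes (circle culture 1, square culture 3, triangle culture 4), with the group mean as a line and the SD as a bar beside it (n = 3). Tfeb and Lamp2 are higher in all 10HDA libraries than in any vehicle library, Ulk1 is lower in all of them, and in the other 6 genes the groups overlap.

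The transcription factor genes differed in level. Tfeb (ENSMUSG00000023990.14, chr17:47737030-47792419, plus strand) had 1.28, 1.16 and 1.10 CPM with vehicle in cultures 1, 3 and 4 and 2.28, 1.92 and 2.35 CPM with 10HDA. These are small numbers of reads: 14, 15 and 13 counts with vehicle and 26, 26 and 21 with 10HDA. The 10HDA libraries were above the vehicle libraries in all 3 cultures. With a minimum of 1 CPM in place of 10, its log2 fold change was 0.88 (SE 0.27, adjusted p = 0.29), between 0.77 and 0.97 without any 1 library or culture. With the culture block and that minimum the adjusted p was 0.095, in a fit in which 7.5% of 15311 genes passed, and DESeq2 gave it an unadjusted p of 0.0485 and no adjusted p. Tfe3, a close relative of Tfeb with 51.0, 42.4 and 54.9 CPM with vehicle and 47.2, 44.2 and 54.2 CPM with 10HDA, had a log2 fold change of -0.03 (adjusted p = 0.95).

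Among the cargo receptors, Sqstm1 encodes p62, which binds ubiquitinated proteins and is itself degraded by autophagy. It had 356, 287 and 306 CPM with vehicle and 296, 292 and 306 CPM with 10HDA. The vehicle library of culture 1 was the highest of the 6, and the other 5 lay between 287 and 306 CPM. The log2 fold change was -0.08 (SE 0.10, adjusted p = 0.79), and it was 0.03 without that library. Nbr1, Optn and Tax1bp1, which bind cargo in the same way, had 0.05, 0.01 and -0.11.

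The ATG8 proteins, which are joined to lipid on the autophagosome membrane, had 5 genes in the set, and none of the 5 passed in the TMM-scaled fits of all 6 libraries, with or without the block. Map1lc3a had 135, 125 and 121 CPM with vehicle and 161, 161 and 111 CPM with 10HDA, so that it was higher in cultures 1 and 3 and lower in culture 4. Its log2 fold change was 0.18 (SE 0.14, adjusted p = 0.66). Map1lc3b had 266, 173 and 192 CPM with vehicle and 178, 191 and 180 CPM with 10HDA, and its log2 fold change was -0.20 (SE 0.14, adjusted p = 0.65). It rested on the vehicle library of culture 1, without which it was 0.03. Gabarapl2 had a log2 fold change of 0.21, Gabarapl1 of 0.02 and Gabarap of -0.03. Members of this family resemble each other in sequence, so counting could have divided reads among them.

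Of the genes that start autophagosome formation, Ulk1 encodes the kinase that mTORC1 inhibits. It had 210, 192 and 225 CPM with vehicle in cultures 1, 3 and 4 and 181, 189 and 175 CPM with 10HDA. The 10HDA libraries were below all vehicle libraries, though by a narrow gap in culture 3. In edgeR's test the log2 fold change was -0.20 (SE 0.096, adjusted p = 0.51). With the culture block its adjusted p = 0.23 in edgeR. Its relative Ulk2, the partner Atg13 and the membrane protein Atg9a, which supplies lipid to the growing membrane, had -0.04, 0.12 and -0.13. Becn1 and Atg14, of the lipid kinase complex that marks the membrane with PI3P, had 0.05 and 0.20, and the PI3P-binding Wipi1 and Wipi2 had -0.13 and 0.16.

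The conjugation genes attach ATG8 proteins to lipid. Atg5 and Atg7, an activating enzyme, had log2 fold changes of 0.19 and 0.18, and Atg3, a conjugating enzyme, had -0.12. Atg12 and Atg16l1, which act with Atg5, had -0.0037 and 0.05. None of these 5 genes passed, and 3 of them were higher.

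Autophagosome and lysosome genes were compared as lists, by their medians and with no test. The 22 autophagosome genes had a median log2 fold change of 0.015 (12 higher, 10 lower) and the 13 lysosome genes one of 0.017 (7 higher, 6 lower), against -0.0095 for all genes tested. Within cultures 1, 3 and 4 the autophagosome medians were 0.010, 0.067 and 0.063, with an SD of 0.032. The lysosome medians were -0.074, 0.13 and 0.00019, with an SD of 0.10. Lysosome minus autophagosome was 0.0016 in the fit, and -0.085, 0.063 and -0.063 in the cultures (SD 0.080), so the difference between the lists was smaller than its spread over cultures and changed sign among them. Lysosome genes were higher with 10HDA in 3 of 13 in culture 1, 11 of 13 in culture 3 and 7 of 13 in culture 4. Without culture 1 the medians were 0.068 and 0.080.

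**Figure D3:**
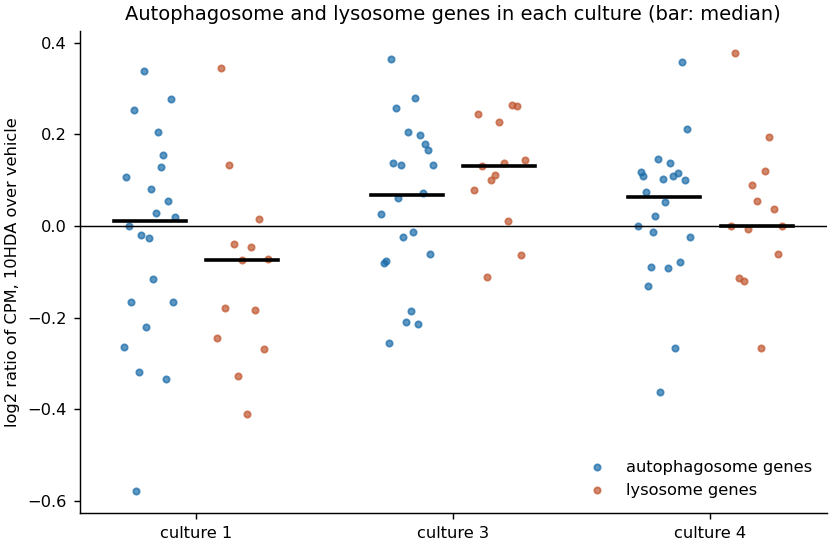
Log2 ratio of CPM, 10HDA over vehicle, for each autophagosome gene and lysosome gene in cultures 1, 3 and 4, with the median of each list as a bar. The lysosome median is -0.074 in culture 1, 0.13 in culture 3 and 0.00019 in culture 4, and the autophagosome medians are 0.010, 0.067 and 0.063.

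The vehicle libraries of cultures 1 and 3 tended to opposite sides in these genes, with median log2 deviations from the gene means of 0.066 and -0.067. The vehicle library of culture 1 was the highest of the 6 in 12 of the 36 genes, against 20.2% of all genes, and that of culture 3 was the lowest in 12, against 14.0%. The summed level of the 37 genes ran from 4529 to 5196 CPM over the vehicle libraries and from 4665 to 4739 over the 10HDA libraries, so the 10HDA range lay inside the vehicle range.

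**Figure D4:**
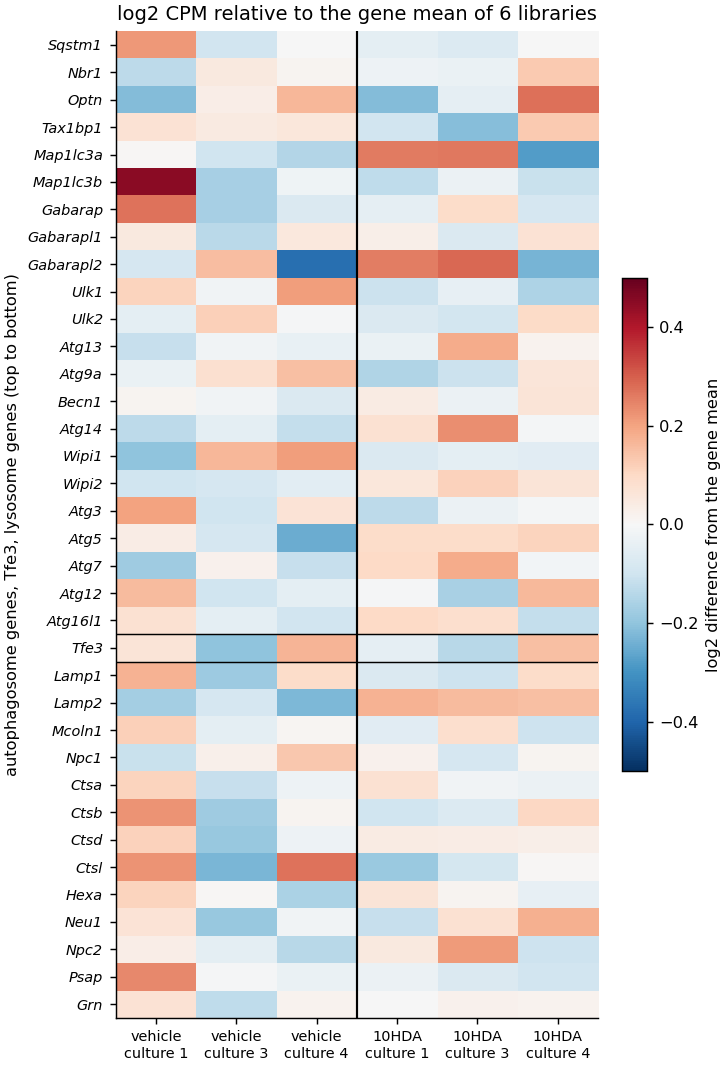
Log2 CPM of each of the 36 genes in each library, relative to the gene's mean over 6 libraries (red higher, blue lower, colours saturating at 0.5 in either direction). The vehicle columns of cultures 1 and 3 hold 12 highest and 12 lowest values, and the Lamp2 row is blue in the 3 vehicle columns and red in the 3 10HDA columns.

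The other genes of the pathway gave the context in 4 lists without these members. Of 39 tested genes of other autophagy steps, 20 were higher and 19 lower, with a median of 0.0025. Without the block 0 passed (0 at an unadjusted p under 0.05, against 10.1% of all genes). With it 0 passed too (2 at an unadjusted p under 0.05, against 2105 of all 10520 genes). The largest differences in that list were 0.31 for Atg4d, a protease that trims ATG8 proteins, and -0.22 for Snap29, a SNARE of autophagosome fusion, neither past the threshold. Of 18 tested subunit genes of the V-ATPase, the pump that acidifies the lysosome, 8 were higher and 10 lower, with a median of -0.03. None passed without the block (2 at an unadjusted p under 0.05, against 10.1% of all genes). With it 2 of the 18 passed, a share near the 8.98% of all genes. Of these, 1 was higher (Atp6v1g1, log2 fold change 0.38, block adjusted p = 0.026) and 1 lower (Atp6v0a1, -0.30, block adjusted p = 0.067). Both passed the block fit without culture 3 (adjusted p = 0.011 and 0.019 in edgeR) but not without culture 1 (0.12 and 0.26) or culture 4 (0.17 and 0.51).

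Of 48 other lysosome genes tested, 30 were higher and 18 lower, with a median of 0.063, and 47.9% of all genes were higher. None of the 48 passed without the block, and 8 had an unadjusted p under 0.05, against 10.1% of all genes. With the block, 4 of the 48 passed and all 4 were higher. In that fit 3.91% of all genes were called higher and 8.98% in either direction. Cd164, a sialomucin of endosomes and lysosomes, had 26.0, 34.4 and 28.5 CPM with vehicle and 43.3, 45.9 and 38.7 CPM with 10HDA. Its log2 fold change was 0.52 (adjusted p = 0.18, and 0.0039 with the block, where it passed without any 1 of the 3 cultures). Tpp1, a protease whose loss causes a neuronal ceroid lipofuscinosis, had 0.32 (block adjusted p = 0.073, not past it without any 1 culture). Scpep1, a serine carboxypeptidase, and Asah1, acid ceramidase, had 0.33 and 0.30 (block adjusted p = 0.090 and 0.091, past it in 1 of the 3 fits that left out a culture, at 0.073 without culture 1 for Scpep1 and 0.033 without culture 3 for Asah1).

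The mTORC1 genes, which act upstream of Ulk1 and TFEB, held the one gene of the 4 lists that passed without the block, 1 of 27 tested against 0.627% of all genes. Sesn2, a leucine sensor that restrains mTORC1, rose from 63.0, 52.9 and 54.5 CPM with vehicle in cultures 1, 3 and 4 to 108, 82.0 and 107 CPM with 10HDA. Its log2 fold change was 0.80 (SE 0.13, adjusted p = 0.043, and 1.5e-05 with the block). It passed in 3 of the 9 fits that left out a library or a culture, those without the vehicle library of culture 1 or the 10HDA library of culture 3 or 4, with adjusted p from 0.017 to 0.28 over the 9. With the block, Slc7a5, a carrier of large neutral amino acids, Ddit4, an mTORC1 inhibitor induced by stress, and Rheb, the small GTPase that activates mTORC1, also passed, at 0.46, 0.63 and 0.30 on the log2 scale (without the block, adjusted p = 0.13, 0.38 and 0.40). That made 4 of 27 with the block, all higher, against 3.91% of all genes called higher and 8.98% in either direction. Of these, Slc7a5 did not pass the block fit without culture 4 (adjusted p = 0.11 in edgeR), and Rheb passed it without culture 3 only (0.083). Of the 27 tested, 17 were higher and 10 lower, where 47.9% of all genes were higher. The lowest was Mtor, the kinase itself, at -0.18 (adjusted p = 0.62).

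**Figure D5:**
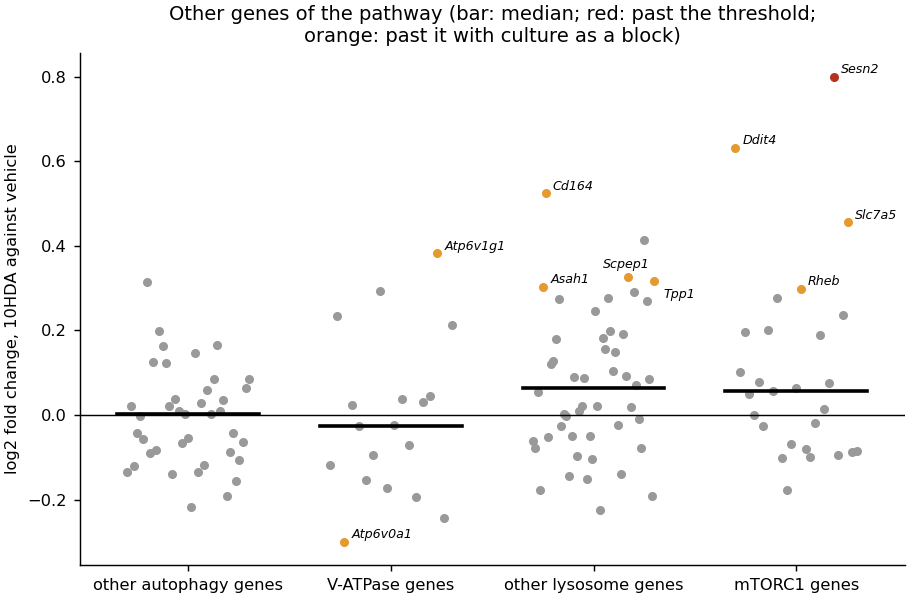
Log2 fold change, 10HDA against vehicle, of each tested gene in 4 further lists, with the median as a bar, red for a gene past the threshold and orange for one past it with culture as a block only. Sesn2 at 0.80 is the red point, and 9 others are orange, 8 of them above 0.

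Genes with and without the E-box letters gave similar medians, compared with no test. The 9 tested genes with CACGTG in their windows had a median log2 fold change of 0.017, 5 of them higher, and the 21 tested genes with a window but without the letters had 0.011, 11 of them higher. Lamp2, without the letters, was the one of these 30 that passed with the block.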

How the data were processed

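RNA libraries were made with a strand-specific kit, and per the paper's methods the authors mapped them to mm10 using Subjunc, then summed reads over Gencode genes in featureCounts. The submitters' processing notes list Subread 1.4.4, edgeR 3.4.2 and R 3.0.2. The deposited values are raw counts per gene, and the strand setting of the counting is not given in the sources used here. Exons of 9 of the 37 genes (Sqstm1, Map1lc3b, Gabarapl1, Atg9a, Lamp1, Npc1, Ctsa, Ctsb and Grn) overlap those of a gene on the opposite strand with at least 1 CPM, so their values could include its reads. Symbols and coordinates came from GENCODE M21 (GRCm38), and 98.0% of identifiers matched.

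Filter (10 CPM in 3 libraries or more), TMM scaling and threshold (Benjamini-Hochberg adjusted p of 0.1) follow the paper's methods, which name no culture term. The test was glmQLFTest after glmQLFit (edgeR 4.0.16, R 4.3.3). The CPM printed are after TMM scaling of the totals over tested genes, while the filter and the counting limit used unscaled library totals. Standard errors are the fold change over the square root of F. DESeq2 1.42.0 and limma 3.58.1 (voom) were alternatives, as were other scalings and filters, each library or culture left out, and culture as a block. The members of the set and all lists were chosen with earlier results of these data known, so no list was tested. Values in every library are given for members with an unadjusted p under 0.05 with or without the block and for Sqstm1, Map1lc3a, Map1lc3b, Tfeb, Lamp1, Ctsd and Ctsb. Tfe3 was added after its values were seen. From the 4 wider lists, genes past the threshold with or without the block were named, at most the 8 with the smallest p, and otherwise the largest rise and fall of each list.

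The labels pair the libraries by culture. Deviations from the treatment means correlated across genes at 0.37, 0.24 and 0.62 for libraries of cultures 1, 3 and 4, and at -0.45 to 0.18 for libraries of different cultures. P-values without the block set the treatment difference against the spread among libraries of a treatment, and so among cultures. Those with the block set it against how that difference varied from culture to culture. In both, the spread of a gene was estimated with help from the other genes. Data were simulated with a common spread for all genes and no culture effect, and 200 of 10520 genes were changed. Without the block, 113 of those at a log2 fold change of 0.5 were recovered, with 14 false calls, and 200 of those at 1, with 21 false calls. Spread differs among the real genes, so recovery there can be lower.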

Additional observations from a re-analysis of the deposited data

How the results depend on the processing

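Over all genes, 66 passed the threshold in edgeR, 636 without a filter beyond 1 count, 170 with the DESeq2 test, 945 with the replicate block and 43 at an adjusted p of 0.05. Leaving out a library or a culture gave 0 to 350, with 0 without the 10HDA library of culture 1 (469 at an unadjusted p under 0.05) and 0 without culture 3 (725). Of the 36 members, 0 passed under each scaling, filter and test and when a library or culture was left out of the fit without the block. With the replicate block 1 passed, Lamp2. With the block and a minimum of 1 CPM, at which Tfeb is tested too, 2 of the 37 passed, Lamp2 and Tfeb. With the block and library size alone as scaling 2 passed, Lamp2 and Gabarapl2, in a fit that called 1265 of all 10520 genes, and with the block without culture 3 it was 4 (Map1lc3b, Ulk1, Lamp2 and Ctsl), in a fit that called 1150 of them. In the wider lists, where 1 passed, library size alone gave 2, no filter 5, the DESeq2 test 3, the replicate block 10, and leaving out a library or culture 0 to 5.

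Library size alone moved the median of all genes to 0.067 and that of the autophagosome genes to 0.091, and put Lamp1 at 0.014 and Ctsb at 0.024, above 0. Leaving out a library moved the autophagosome median between -0.0099 and 0.082 (0.068 without culture 1, -0.011 without culture 4). Leaving out a library or culture moved the lysosome median between -0.022 and 0.087 and their difference between -0.053 and 0.030. Without single libraries, the ranges were -0.13 to 0.030 for Sqstm1 and -0.30 to 0.027 for Map1lc3b, widening to -0.14 to 0.030 and -0.35 to 0.042 with cultures left out as well. For libraries and cultures together they were -0.14 to 0.054 for Lamp1, -0.12 to 0.12 for Ctsb and -0.011 to 0.16 for Ctsd. Sqstm1, Map1lc3b, Lamp1 and Ctsb turned above 0 without the vehicle library of culture 1 (0.030, 0.027, 0.035 and 0.081) or without culture 1 (0.029, 0.042, 0.054 and 0.12), and Ctsd fell below 0 without culture 3. The cause was not tested. Lamp2, Map1lc3a, Ulk1 and Tfeb kept their direction under every alternative run. The replicate block changed no other call among the members tested at 10 CPM. With 3 libraries a group, log2 fold changes of 0.5 were recovered in part on simulated data, so smaller differences could be missed. Larger ones could be missed too, and Pdgfra, at -1.21, did not pass without the block (edgeR adjusted p = 0.15).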
